A study of Mus musculus with 6 samples.

Results

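Genes of the cell cycle and of DNA replication were examined as a list of 39 genes. They were chosen for their roles in S phase and mitosis, with earlier results of these data known. A total of 49 probe sets annotated to a single one of these symbols represented 36 of the genes, out of 12422 probe sets and 8251 genes on the array. Ccnb1 and Bub1b had no such probe set, and Tyms was read by 2 probe sets that it shares with a pseudogene. Because of how the list was chosen, counts and medians over its genes are descriptions and not tests. The RNA of B cells from the spleens of adult mice was measured on 6 arrays, 2 each for wild type CBA mice, Xid mice and Btk KO mice. Xid mice are CBA/N, with the mutation R28C in Btk. The Btk KO line came from a knockout on an SW129 background that had been crossed to CBA for 9 generations. Btk is the kinase that relays signals from the B cell receptor. The first set of 3 chips, 1 per group, is called run 1 here, and the second set, with new RNA from new mice, run 2. The labels state neither how the B cells were isolated nor how many animals gave each RNA, so p-values measure the spread between these RNA samples. Xid and Btk KO are separate mouse lines, and the Btk defect and other differences between the lines cannot be told apart.

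A cell copies its DNA in S phase and divides it in mitosis, and most genes of these phases are transcribed in cycling cells and shut down in resting ones. The MCM helicase is loaded on DNA before S phase and opens it at the fork, where polymerases, the clamp PCNA and the nucleotide-making enzymes work. Cyclins A and B with Cdk1, the Polo and Aurora kinases and the spindle checkpoint drive and time mitosis. Most B cells of the resting spleen do not cycle, while red cell precursors, plasmablasts and germinal centre B cells do.

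Of the arrays, Btk KO of run 1 stood apart. The control probe sets for the 3' and 5' ends of Gapdh gave a ratio of 10.4 there, compared with 0.756 to 1.61 elsewhere, and those of beta-actin 3.61, compared with 1.10 to 1.66. No other array shared its hybridisation day. The brighter Btk probe set measured 276.1 and 173.6 in Btk KO (intensity, scaled units), below the other 4 arrays at 643.9 to 874.1. The 11 B cell markers on the array summed to between 28564 and 43808 per array, with Cd79a, the receptor's signalling chain, at 3066.3 or more throughout. With 2 arrays a group, their number sets the precision.

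The genes fell into 2 classes by textbook role, with 18 of the measured genes in S phase and 15 in mitosis, and 3 genes, Cks1b, Stmn1 and Hmgb2, in neither. RefSeq promoter windows on GRCm38.p6, from 250 bases before to 50 after each transcript start, were given for 35 of the 39 listed genes. Mcm4, Ccna2, Aurkb and Stmn1 had none. Letters known from E2F sites (TTTGGCGC, TTTCCCGC, TTTCGCGC or TTTGCCGC, on either strand) lay in the windows of 8 of 18 S phase genes with a window, or 44.4%, of 1 of 15 such mitotic genes, or 6.67%, and of 2.6% of all 27025 genes in the table. The CHR letters TTTGAA lay in 3 S phase genes (16.7%), in 10 mitotic genes (66.7%) and in 20.2% of all genes. CCAAT lay in 12 S phase genes (66.7%), 13 mitotic genes (86.7%) and 41.1% of all genes. These are matches of letters, and binding was not measured. E2F letters were thus more frequent in the S phase windows and CHR letters in the mitotic ones. The promoters of 4 genes are shown because the values below turn on 3 of them, while Mcm5 shows the E2F letters. Capitals mark the letters named above on either strand, and neighbouring matches can overlap. Each stretch runs from 170 bases before to 30 bases after the start, 5' to 3'. Ccnb2 lies at chr9:70421525-70421724, minus strand, Top2a at chr11:99024160-99024359, minus strand, Rrm2 at chr12:24708084-24708283, plus strand, and Mcm5 at chr8:75109339-75109538, plus strand.
Ccnb2: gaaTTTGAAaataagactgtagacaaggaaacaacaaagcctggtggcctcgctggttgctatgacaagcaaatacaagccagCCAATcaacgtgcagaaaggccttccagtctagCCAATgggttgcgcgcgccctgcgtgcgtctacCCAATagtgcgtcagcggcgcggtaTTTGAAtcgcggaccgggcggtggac
Top2a: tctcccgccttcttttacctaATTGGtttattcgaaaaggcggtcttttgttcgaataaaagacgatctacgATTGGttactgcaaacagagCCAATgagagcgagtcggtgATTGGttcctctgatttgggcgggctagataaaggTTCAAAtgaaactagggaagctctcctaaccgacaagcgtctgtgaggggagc
Rrm2: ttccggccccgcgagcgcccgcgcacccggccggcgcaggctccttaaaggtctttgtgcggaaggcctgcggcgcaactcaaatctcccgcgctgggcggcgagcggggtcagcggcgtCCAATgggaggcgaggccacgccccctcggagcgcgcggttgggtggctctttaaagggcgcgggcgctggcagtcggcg
Mcm5: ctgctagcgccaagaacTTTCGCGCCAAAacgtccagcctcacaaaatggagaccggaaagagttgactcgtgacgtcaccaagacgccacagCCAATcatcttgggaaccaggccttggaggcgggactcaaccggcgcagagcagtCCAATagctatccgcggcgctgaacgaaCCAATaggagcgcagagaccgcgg
In these stretches Ccnb2 held 2 CHR and 3 CCAAT matches, Top2a 1 and 4, Rrm2 a single CCAAT match, and Mcm5 2 overlapping E2F matches with 3 CCAAT matches.

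Probe sets whose mean on the log2 scale lay below the level of an intensity of about 19.8 were counted as dim, and 37 of the 49 passed, standing for 33 genes, 17 of S phase and 13 of mitosis. Mcm6, Kif11 and Bub1 were dim on all of their probe sets. Mcm6, a helicase subunit, read at most 8.4 on any array, too dim to compare.

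**Figure D1:**
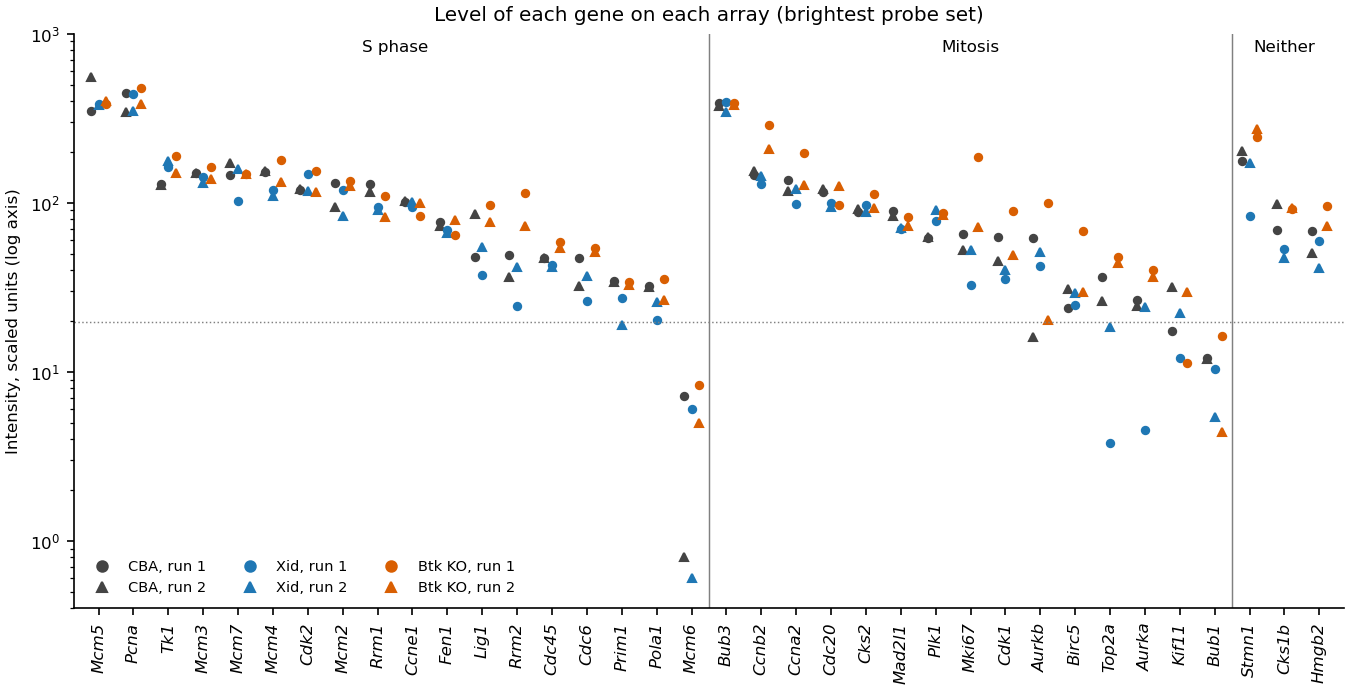
Intensity (scaled units, log axis) of the brightest probe set of each of the 36 genes on each of the 6 arrays, by class; the dotted line is the dim limit of 19.8. Most genes lie above the limit on all arrays, and in Rrm2, Ccnb2, Stmn1 and Hmgb2 both Btk KO arrays lie above the other 4.

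Among the enzymes that make DNA precursors, Rrm2, the regulated subunit of ribonucleotide reductase, measured 49.2 and 36.6 in CBA, 24.4 and 41.7 in Xid, and 113.7 and 72.4 in Btk KO, in the order of run 1 and run 2. Both Btk KO arrays lay above all others, and CBA and Xid overlapped. The log2 difference (of intensity plus a pseudocount of 6) was 1.0 ± 0.35 for Btk KO against CBA (SE; limma adjusted p = 0.44, and 0.22 with the run as a block) and 1.35 ± 0.35 against Xid (0.91 and 0.39). Rrm1, the partner subunit, measured 129.7 and 115.3 in CBA, 93.9 and 90.7 in Xid and 109.4 and 82.3 in Btk KO. Both mutant lines lay below CBA on all their arrays for this Rrm1 probe set. On a dim second one, at most 8.3 on any array, both lines overlapped CBA. Tk1, thymidine kinase of the salvage pathway, measured 129.1 and 127.4 in CBA, 162.1 and 176.2 in Xid, and 189.7 and 149.1 in Btk KO. It was higher in both mutant lines by the same 0.38 ± 0.21 (limma adjusted p = 1.0 in Xid and 0.69 in Btk KO), whereas 15 of the 18 S phase genes had a negative difference in Xid. The brighter of the probe sets shared by Tyms, thymidylate synthase, and its pseudogene read 24.3 and 24.6 in CBA, 28.9 and 32.7 in Xid, and 37.5 and 42.6 in Btk KO. The other read 17.2 and 25.6 in CBA, 27.0 and 19.6 in Xid, and 29.8 and 15.2 in Btk KO. Its groups overlapped. No value is given to Tyms alone.

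The helicase genes gave small differences. Mcm2 measured 131.0 and 94.6 in CBA, 118.9 and 83.8 in Xid, and 135.2 and 125.2 in Btk KO, so run 1 was above run 2 in each group. It differed from CBA by -0.15 ± 0.26 in Xid (adjusted p = 1.0) and by 0.21 ± 0.26 in Btk KO (0.90). Mcm4 measured 151.6 and 153.5 in CBA, 118.5 and 109.0 in Xid, and 178.3 and 131.8 in Btk KO. Xid lay below the other groups on both arrays for Mcm4, with a difference of -0.41 ± 0.22 from CBA (adjusted p = 1.0, and 0.69 with the block). Mcm3, between 130.7 and 163.5, and Mcm7, between 102.0 and 171.3, differed from CBA by -0.14 and -0.30 in Xid and by 0.00 and -0.09 in Btk KO, and a further Mcm3 probe set by -0.18 and 0.28. Mcm5 ranged from 348.2 to 554.4, and both of these values were CBA arrays. Of the factors that load and start the helicase, Cdc6 measured 47.1 and 32.2 in CBA, 26.3 and 36.7 in Xid, and 54.2 and 50.8 in Btk KO. Cdc45 was tightly spaced, at 47.1 and 46.8 in CBA, 42.7 and 41.9 in Xid, and 58.2 and 54.3 in Btk KO. The 3 groups did not overlap for Cdc45, although the difference of Btk KO from Xid was only 0.37 ± 0.25 (adjusted p = 1.0).

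At the replication fork, Pcna, the sliding clamp, measured 446.5 and 345.2 in CBA, 439.6 and 351.3 in Xid, and 474.7 and 385.3 in Btk KO, and the differences from CBA were 0.00 ± 0.23 in Xid and 0.12 ± 0.23 in Btk KO. In each group run 1 was higher, and the 3 groups overlapped. Prim1, the primase subunit, measured 34.6 and 34.0 in CBA, 27.4 and 18.9 in Xid, and 33.9 and 32.5 in Btk KO. Pola1, the catalytic subunit of polymerase alpha, measured 32 and 31.9, 20.3 and 26.0, and 35.2 and 26.6 in the same order. Both were lower on the Xid arrays than on the CBA arrays, with differences of -0.48 ± 0.31 and -0.39 ± 0.32, and -0.04 and -0.05 in Btk KO. Lig1, the ligase that joins Okazaki fragments, measured 47.6 and 85.3 in CBA, 37.6 and 54.6 in Xid, and 97.5 and 77.3 in Btk KO. Btk KO and Xid did not overlap there (0.85 ± 0.34). On a dim second Lig1 probe set, between 10.4 and 29.1, these groups overlapped and the difference was -0.25. Fen1, the flap nuclease, stayed between 64.4 and 79.4 on all arrays. Of the kinase that starts S phase, Ccne1 lay between 83.1 and 102.3 and Cdk2 between 115.2 and 154.3. A dim second Cdk2 probe set read 20.9 and 29.8 in CBA, 6.4 and 9.0 in Xid, and 19.5 and 13.7 in Btk KO, a pattern that the brighter one did not show.

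Of the mitotic genes, Ccnb2, cyclin B2, measured 146.5 and 154.5 in CBA, 129.2 and 143.9 in Xid, and 289.6 and 208.4 in Btk KO. All 3 groups were separate, with Btk KO highest and Xid lowest. The difference was 0.69 ± 0.23 for Btk KO against CBA (limma adjusted p = 0.39, and 0.16 with the block), and 0.95 and 0.42 within the runs. Against Xid it was 0.82 ± 0.23 (0.96 and 0.38). Ccna2, cyclin A2, measured 136.2 and 117.7 in CBA, 98.7 and 120.7 in Xid, and 196.5 and 126.9 in Btk KO. Cdk1, the kinase both cyclins drive, measured 62.8 and 45.5 in CBA, 35.2 and 39.8 in Xid, and 89.2 and 49.0 in Btk KO. For Ccna2 and Cdk1 the Btk KO array of run 1 was the highest of all and that of run 2 lay within the CBA range. Cdk1 differed from CBA by -0.45 ± 0.34 in Xid (adjusted p = 1.0) and by 0.28 ± 0.34 in Btk KO (0.89). Without Btk KO of run 1, the Cdk1 difference of Btk KO was -0.11.

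Of the subunits that dock onto Cdk1 and Cdk2, Cks1b measured 68.9 and 98.6 in CBA, 53.0 and 47.3 in Xid, and 92.1 and 93.0 in Btk KO. Xid was below both other groups on both arrays, by -0.66 ± 0.25 from CBA (adjusted p = 1.0, and 0.50 with the block), and Btk KO was above Xid by 0.81 ± 0.25 (1.0 and 0.49). Its paralogue Cks2 stayed between 88.1 and 113.4, with differences of 0.04 and 0.18 from CBA.

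Top2a, the topoisomerase that untangles chromosomes, measured 36.2 and 26.3 in CBA, 3.8 and 18.5 in Xid, and 47.7 and 44.0 in Btk KO. The 3 groups were separate, but both Xid arrays lay below the dim limit and differed between themselves, so the size of the log2 difference depends on the pseudocount. It was -1.25 ± 0.47 for Xid against CBA (adjusted p = 0.98, and 0.50 with the block) and 1.74 ± 0.47 for Btk KO against Xid (0.95 and 0.40). Mki67, which codes for the proliferation antigen Ki-67, measured 65.7 and 52.5 in CBA, 32.8 and 52.5 in Xid, and 187.3 and 71.5 in Btk KO. Both Btk KO arrays were above the other 4, and the difference from CBA was 1.43 in run 1 and 0.41 in run 2 (0.92 ± 0.44 together, adjusted p = 0.62, and 0.35 with the block). Against Xid the difference was 1.36 ± 0.44 (1.0 and 0.49). A fainter Mki67 probe set stayed between 26.5 and 32.8 on all arrays. It differed from CBA by 0.09 in Xid and by 0.21 in Btk KO, and Btk KO from Xid by 0.13. Stmn1, stathmin, placed in neither class, which takes microtubules apart, measured 177.3 and 202.6 in CBA, 83.9 and 171.6 in Xid, and 244.1 and 273.8 in Btk KO. Again the groups were separate, at -0.63 ± 0.32 for Xid against CBA (adjusted p = 1.0, and 0.52 with the block), 0.44 ± 0.32 for Btk KO against CBA (0.79 and 0.45) and 1.07 ± 0.32 against Xid (1.0 and 0.32). A dim second Stmn1 probe set, at most 10.0 on any array, did not show this order and differed from CBA by 0.52 in Xid. Hmgb2, a chromatin protein of cycling cells, measured 68.5 and 50.5 in CBA, 59.4 and 41.2 in Xid, and 95.3 and 73.2 in Btk KO, 0.47 ± 0.29 above CBA (0.74 and 0.38). Both Btk KO arrays were above the other 4.

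**Figure D2:**
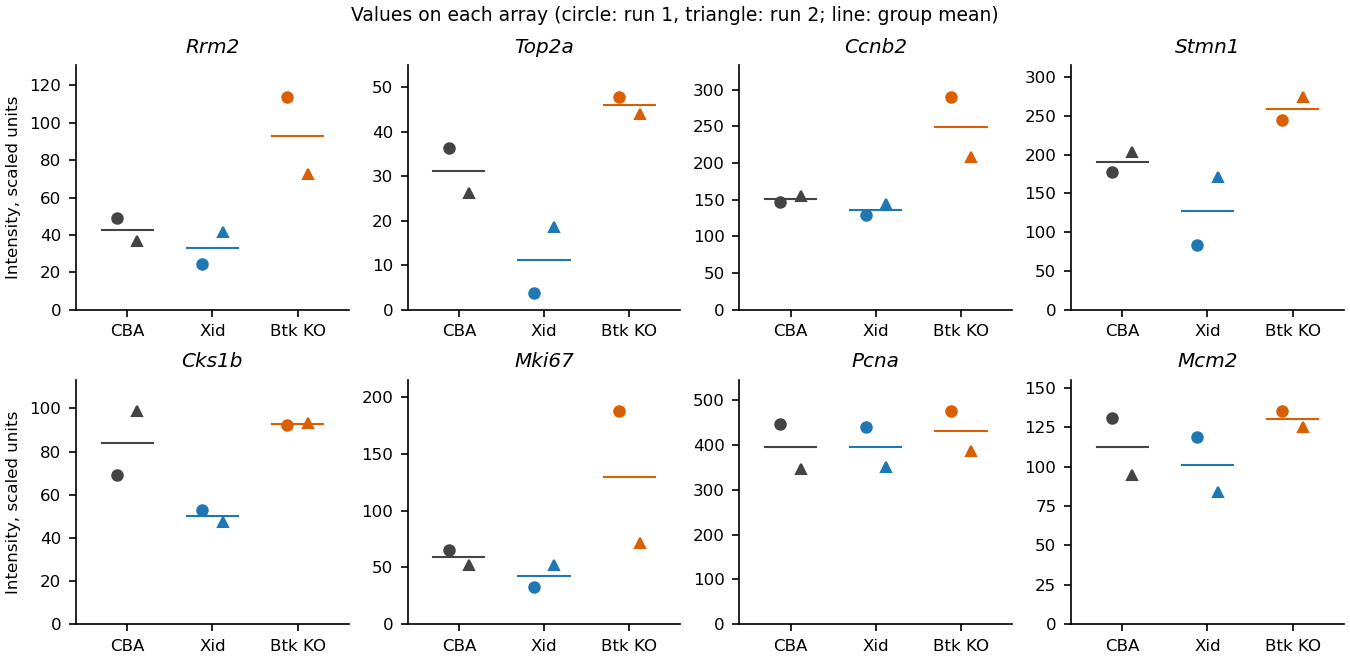
Intensity (scaled units) on each array for 8 genes, with the group mean of 2 arrays as a line. Both Btk KO arrays exceed all other arrays in Rrm2, Top2a, Ccnb2, Stmn1 and Mki67, whereas the groups overlap in Pcna.

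Of the mitotic kinases, Aurka, of spindle poles, measured 26.7 and 24.6 in CBA, 4.5 and 24.2 in Xid, and 40 and 36.3 in Btk KO. The Xid value of run 1 is near the floor and that of run 2 is close to CBA. Aurkb, of centromeres, measured 61.8 and 16.0 in CBA, 42.0 and 50.8 in Xid, and 100 and 20.3 in Btk KO, and its spread within CBA and within Btk KO exceeded the differences between groups. Birc5, survivin, which sits in a complex with Aurora B, measured 23.7 and 31.0 in CBA, 25.0 and 29.4 in Xid, and 68.3 and 29.7 in Btk KO, so run 1 of Btk KO was high and run 2 lay within CBA. The probe sets of Plk1, Polo-like kinase, disagreed. The one that is brightest, of a type that can read related transcripts, measured 61.7 and 62.7 in CBA, 78.4 and 90.7 in Xid, and 86.9 and 85.1 in Btk KO, at 0.41 ± 0.22 for Xid against CBA (limma adjusted p = 1.0, and 0.74 with the block) and 0.43 ± 0.22 for Btk KO against CBA (0.65 and 0.39). Another measured 93.9 and 98.5 in CBA, 31.4 and 79.5 in Xid, and 64.6 and 78.7 in Btk KO, at -0.85 ± 0.39 (1.0 and 0.49) and -0.40 ± 0.39 (0.85 and 0.60). On the former both mutant lines lay above CBA and on the latter below it, so no direction is given for Plk1. The gene counts and medians below use the brightest probe set, and so count Plk1 as higher in both mutant lines. A fainter probe set differed by -0.10 and 0.40.

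Of the spindle checkpoint genes, Bub3 lay between 346.4 and 397.1. Mad2l1 measured 89.6 and 83.8 in CBA, 70.1 and 70.9 in Xid, and 82.7 and 73.3 in Btk KO, below CBA on all 4 arrays. Cdc20, the activator that the checkpoint restrains, measured 115.3 and 121.4 in CBA, 99.8 and 94.4 in Xid, and 96.9 and 125.8 in Btk KO. The brightest Bub1 probe set read at most 16.3, and Kif11, the spindle motor, between 11.3 and 31.6, both dim.

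In the comparison of Xid with CBA, the question is how the point mutant line differs from wild type. The cell cycle genes were mostly lower in Xid, but none passed the test. Of 36 genes 30 had a negative difference, and 17 (47.2%) were lower on both Xid arrays than on both CBA arrays, against 14.2% of all 8251 genes. Higher on both were 2 (5.56%), against 18.3%. Within both runs 23 genes (63.9%) were lower and 2 higher, where 23.5% and 29.5% of all genes were. The median was -0.17 for S phase genes (-0.14 and -0.13 within the runs) and -0.27 for mitotic genes (-0.33 and -0.10), against 0.02 for all genes. Limma, adjusted over 7453 probe sets, called 0 of the 37 member probe sets, where 0.0671% of all were called, and 0 with the run as a block, where 0.483% were. At an unadjusted p under 0.05, 2 of the 37 (5.41%) were lower and 0 higher, with a background of 1.56% lower and 2.87% higher. With the block 4 (10.8%) were lower and 0 higher, against 3.45% and 4.66%. The genes on the lower side at that level were Top2a and Cks1b, joined under the block by Stmn1 and a Plk1 probe set.

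In the comparison of Btk KO with CBA, which asks how the knockout line differs from wild type, no member passed the test. The median was 0.31 for mitotic genes (0.46 in run 1 and 0.09 in run 2) and 0.06 for S phase genes (0.12 and -0.05), against 0.05 for all genes (0.07 and 0.04). The S phase median was therefore level with that of all genes, and it turned to -0.05 when each array was centred on its median, which moves the median of all probe sets from 0.05 to -0.06. A test of the difference between the classes was not made. Both Btk KO arrays exceeded both CBA arrays for 12 of 36 genes (33.3%), against 21.6% of all genes, and lay below both for 4 (11.1%), against 13.8%. Within both runs 19 genes (52.8%) were higher and 5 lower, where 32.9% and 22.9% of all genes were. Limma called 0 of 37 member probe sets without the block, where 0.174% of all were called, and 0 with it, where 2.23% were. At an unadjusted p under 0.05, 2 (5.41%), Rrm2 and Ccnb2, were higher and 0 lower, against a background of 5.65% and 3.18%. With the block the counts were 2 and 0, against 8.1% and 6.95%. The share higher was thus no larger than the background. Without the Btk KO array of run 1 no member probe set (0 of 38 with limma) reached that level on the higher side, 14 genes (38.9%) lay above both CBA arrays, against 34.7% of all genes, 9 (25%) lay below both, against 32.5%, and the medians were 0.08 for mitotic and -0.03 for S phase genes. Xid and Btk KO were each compared with the same CBA arrays.

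In the comparison of Btk KO with Xid, which sets the knockout line against the point mutant, most members were higher in Btk KO, and none passed the test. Of 36 genes 34 had a positive difference and 20 (55.6%) were higher on both Btk KO arrays, against 15.2% of all genes, and 0 were lower on both, against 12.2%. Within both runs 24 (66.7%) were higher and 1 lower, where 28.3% and 24.1% of all genes were. The median was 0.27 for S phase genes (0.24 and 0.18 within the runs), 0.18 for mitotic genes (0.95 and 0.13) and 0.02 for all genes. Without the dim genes the mitotic median was 0.51. Limma called 0 of 37 member probe sets without the block, where 0.0403% of all were called, and 0 with it, where 0.188% were. At an unadjusted p under 0.05, 9 (24.3%) were higher and 0 lower, against a background of 2.24% and 1.37%. Those were Rrm2, Top2a, Ccnb2, Stmn1, Cks1b, the brighter but not the fainter Mki67 probe set, Aurka, Lig1 and Hmgb2. With the block 10 (27%) were higher, Cdk1 being added, and 0 lower, against 3.76% and 3.56%. Leaving out the Btk KO array of run 1 gave 5 of 38 (13.2%), against 2.07%, and with the block as well 3 (7.89%), against 2.63%. Genes above both Xid arrays then numbered 23 (63.9%), against 30.2% of all, and genes below both 5 (13.9%), against 32.9%. In 5 of the 36 genes (13.9%), Cdc45, Top2a, Ccnb2, Aurka and Stmn1, the Xid arrays lay below and the Btk KO arrays above both CBA arrays, against 0.97% of all genes. The comparison shares its arrays with the other comparisons.

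**Figure D3:**
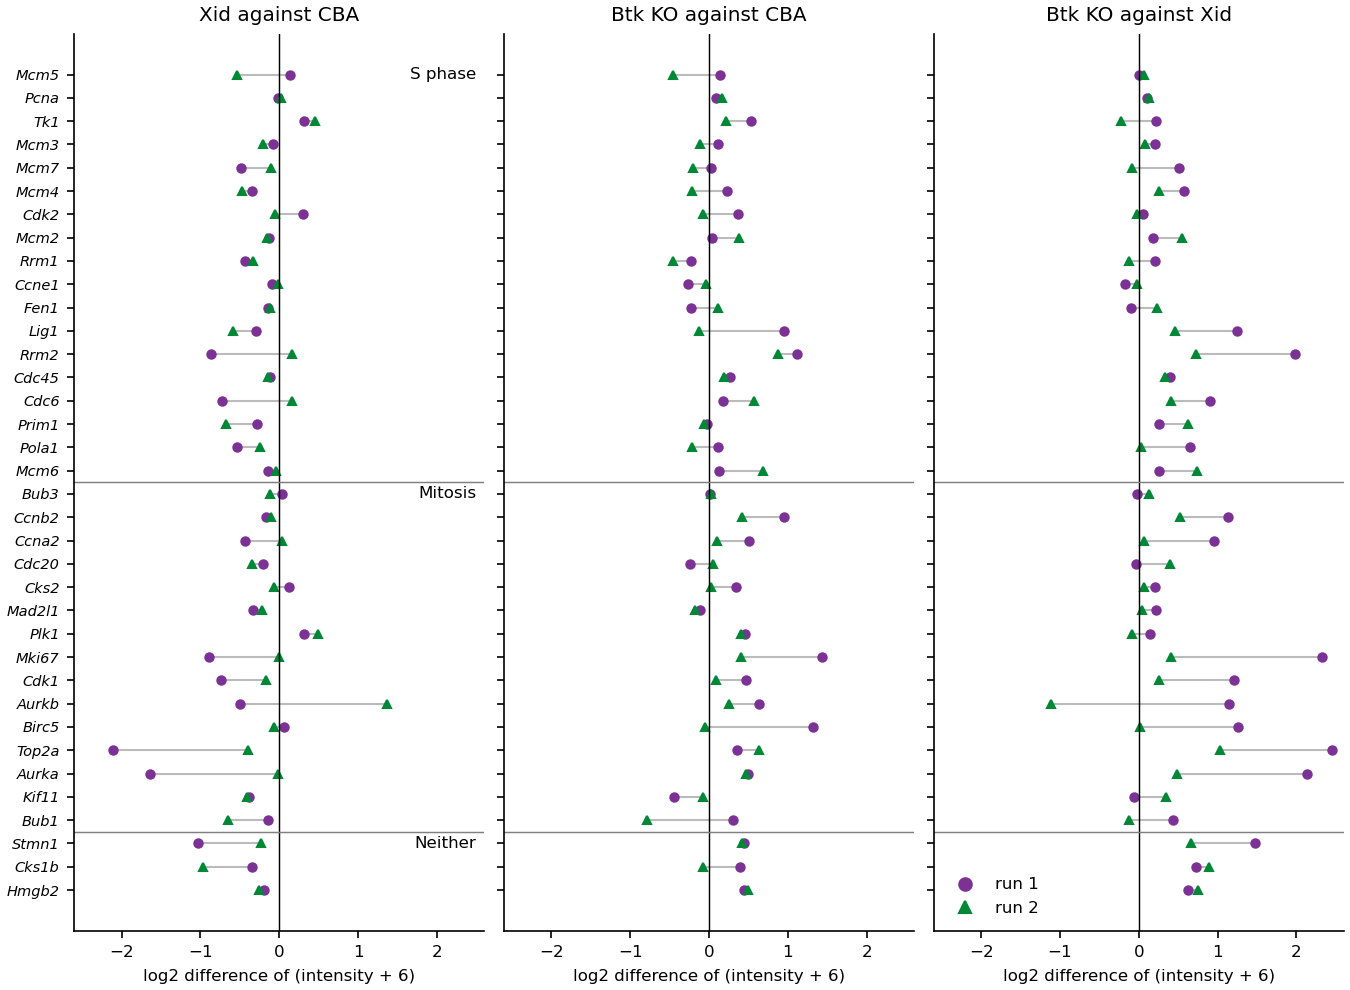
Difference of log2 (intensity + 6) between groups within run 1 (circles) and run 2 (triangles) for each of the 36 genes, in 3 comparisons. In Btk KO against Xid most genes lie right of 0 in both runs, and Mki67, Top2a, Aurka and Rrm2 lie much further out in run 1 than in run 2.

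Among other genes of the pathway none passed the test. Of 38 other DNA replication genes on the array 30 passed the dim limit, and of 39 other mitotic genes 27. Limma called 0 of both lists in all 3 comparisons, with or without the block. At an unadjusted p under 0.05 without the block, 0 of the replication genes and 0 of the mitotic genes reached that level in Xid, 0 and 2 in Btk KO against CBA, and 1 and 4 in Btk KO against Xid, all of them higher. Of all probe sets 2.87% were higher and 1.56% lower in Xid, 5.65% and 3.18% in Btk KO against CBA, and 2.24% and 1.37% in Btk KO against Xid. With the block 1 replication gene, Rpa1, was at that level on the lower side in Xid. In Btk KO against CBA Rpa1 was lower and Orc6, of the origin recognition complex, higher, beside 2 mitotic genes that were higher. Of all probe sets 4.66% were higher and 3.45% lower in Xid with the block, and 8.1% and 6.95% in Btk KO against CBA. Against Xid 1 replication gene and 7 mitotic genes were then higher, with 3.76% of all probe sets higher. The medians of the replication and mitotic lists were -0.09 and -0.13 in Xid, 0.05 and 0.25 in Btk KO against CBA, and 0.14 and 0.32 in Btk KO against Xid. In Xid the share lower on both arrays was 15.8% and 17.9%, near the 14.2% of all genes. The share higher on both Btk KO arrays was 13.2% and 28.2% against CBA, where all genes gave 21.6%, and 18.4% and 33.3% against Xid, where all genes gave 15.2%. Without Btk KO of run 1 these were 15.8% and 38.5% against CBA (34.7% of all genes) and 26.3% and 43.6% against Xid (30.2%). Racgap1, of cytokinesis, measured 35.5 and 34.5 in CBA, 26.4 and 33.3 in Xid, and 68.1 and 53.7 in Btk KO. Nusap1, a spindle protein, measured 27.8 and 33.4 in CBA, 32.4 and 23.1 in Xid, and 69.7 and 46.4 in Btk KO. For both, Btk KO lay above all other arrays, and the differences from CBA were 0.70 ± 0.28 and 0.79 ± 0.33 (adjusted p = 0.53 and 0.54). Prc1, which bundles spindle microtubules, and Ube2c, a ubiquitin carrier of mitotic exit, followed with 0.56 ± 0.28 and 0.94 ± 0.51. Ube2c, at 54.1 and 14.5 in CBA and 75.9 and 49.3 in Btk KO, overlapped between these groups. Against Xid the values were 0.90 for Racgap1, 0.91 for Nusap1, 0.72 for Prc1 and 0.68 for Cdca8, of the chromosomal passenger complex. Of the replication list, Dck, deoxycytidine kinase, and Chaf1a, a histone chaperone, were 0.34 and 0.55 above CBA in Btk KO, Rpa1, of the single-strand binding complex, and Rnaseh2a were at -0.53 and -0.39, and Uhrf1, which reads newly copied DNA, was 0.54 ± 0.23 above Xid. Chaf1a, Dck and Dnmt1, the maintenance methyltransferase, were 0.63, 0.38 and 0.33 above Xid. In Xid against CBA the lowest p-values among genes past the dim limit belonged to Pola2, Uhrf1, Rpa1 and Dnmt1, at -0.49, -0.41, -0.44 and -0.26, and to Plk4, Cdca8, Ube2s and Cdca3, at 0.65, -0.34, 0.35 and 0.35. For Plk4 the groups overlapped, and the difference was -0.21 in run 1 and 1.51 in run 2 (0.65 ± 0.41 together).

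Marker transcripts of other cell types also differed between the arrays. The 16 erythroid markers on the array, of 21 listed, summed to 24156 and 12057 in Btk KO, 6429 and 8625 in CBA, and 9944 and 8693 in Xid. Both Btk KO arrays were above both CBA arrays for 13 of the 16 (81.2%), against 21.6% of all genes, and 0 markers were at 0 on all arrays. Klf1, a red cell transcription factor, measured 169.7 and 102.3 in Btk KO, 54.0 and 61.4 in CBA, and 45.4 and 64.1 in Xid. The erythroid markers other than Tfrc, the transferrin receptor (275.7 and 493.2), were higher in Btk KO of run 1 than of run 2. The sum of 12 neutrophil markers was 932 and 1721 in Btk KO against 227 to 329 elsewhere, and that of 9 NK and cytotoxic markers 864 and 1620 against 370 to 831. The 13 macrophage markers summed to 2564 and 3827 in CBA, 5838 and 8801 in Xid, and 9410 and 12491 in Btk KO. Bright genes weigh most in such sums, as Hba-a1 does among the erythroid markers (13054.9 and 6371.9 in Btk KO). Both Btk KO arrays were above both CBA arrays for 7 of 12 neutrophil markers, against 21.6% of all genes. The count was 9 of 9 for NK and cytotoxic markers and 10 of 13 for macrophage markers. The B cell markers were lower on both Btk KO arrays than on both CBA arrays for 10 of 11, against 13.8% of all genes. Markers of plasma cells (6) summed to between 1116 and 2095 and those of germinal centre B cells (5) to between 204 and 326, and both Btk KO arrays were below both CBA arrays for 1 of the 6 and 2 of the 5. The 9 T cell markers summed to between 158 and 438. The part of these cells in the cell cycle values was not tested, and in such bulk RNA fewer cells of a type and less RNA per cell cannot be told apart.

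**Figure D4:**
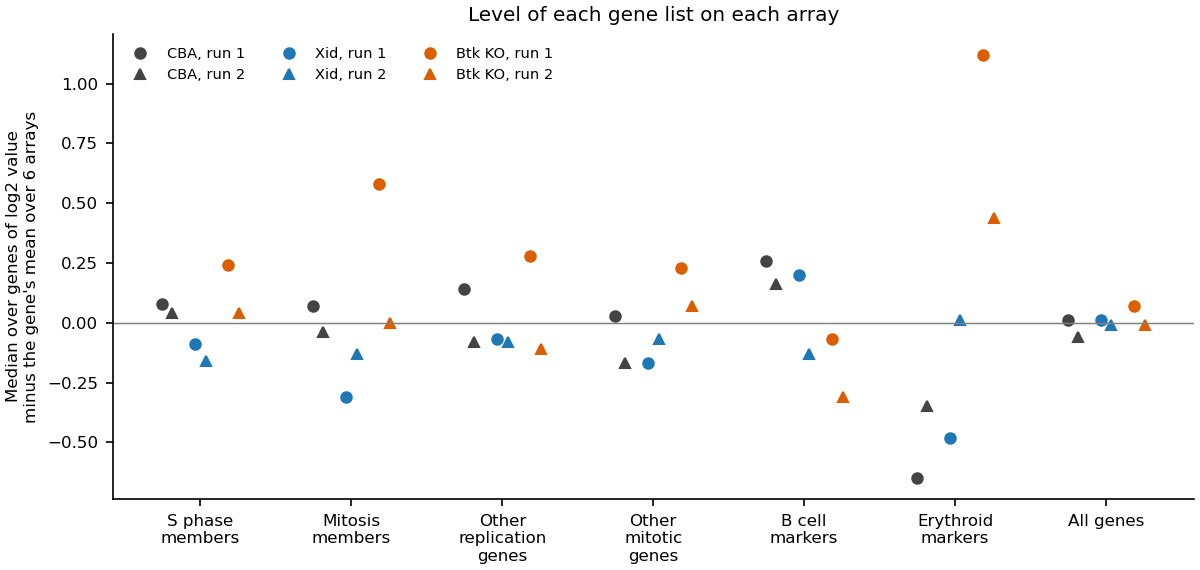
Median over the genes of each list of the log2 value minus the gene's mean over the 6 arrays, for each array. The mitosis members stand at 0.58 on Btk KO of run 1 and at 0.00 on Btk KO of run 2, and the erythroid markers at 1.12 and 0.44.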

How the data were processed

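Total RNA of whole splenic B cells was hybridised to 6 MG_U74Av2 arrays. The deposited values are 1 linear intensity per probe set and array, as the authors scaled them: the 2% trimmed mean was 100.06 on each array. The summary method is not given in the sources used here. Of 12488 probe sets 66 are controls, and the probe annotation gives 1 symbol to 10833 of the others, updated through gene numbers of GRCm38.p6. A pseudocount of 6 was added before log2, and 4969 probe sets with a mean below the 40th percentile were left out as dim. The 7453 kept were fitted with limma 3.58.1 (R 4.3.3; 1 model of the 3 group means, intensity trend, two-sided, Benjamini-Hochberg at 0.05), which leaves 3 residual degrees of freedom. The fit was tried on simulated data with independent noise and no run effect. These arrays differ from that, so its power on them was not measured. Dim probe sets that are named are given by their values, and several further dim probe sets of members are not named. A gene was represented by its brightest probe set, and list medians include dim ones.

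The replicate numbers mark runs with their own chip lot, per the file headers and the labels' design text. Deviations from the group mean correlated between groups within a run, at 0.31, 0.374 and 0.441, so the run was also fitted as a block. Members and lists were chosen with earlier results of these data known. All members are named. Values on every array are given for the 6 members of smallest p per comparison, for Mki67, Top2a, Pcna, Mcm2, Ccnb1 (no probe set) and Cdk1, and for further members of each role, chosen after their values were seen. Of each list of other pathway genes up to 4 of smallest p per comparison are named. Figures were drawn with matplotlib 3.10.9.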

Additional observations from a re-analysis of the deposited data

Results flagged for a closer look

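For 5 of 36 genes (13.9%) both Xid arrays lay below both CBA arrays and both Btk KO arrays above them, an order found in 0.97% of all 8251 genes. The Btk KO against Xid difference was 0.37 for Cdc45, 1.74 for Top2a, 0.82 for Ccnb2, 1.31 for Aurka and 1.07 for Stmn1 on the log2 scale. The order that picked these genes fixes the direction of this difference, so it is given as a description and was not tested on other arrays. The difference was 2.45 in run 1 and 1.03 in run 2 for Top2a, and 2.13 and 0.49 for Aurka, whose Xid values of run 1, 3.8 and 4.5, are near the floor.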

How the results depend on the processing

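No member probe set was called under any alternative tried (0 with limma): the replicate block (0 in each of the 3 comparisons), quantile normalization, median centring, pseudocounts of 1 and 32, no filter and a stricter one, a fit with no intensity trend, fits of 2 groups alone, omission of each array, and the block without Btk KO of run 1. The block without a filter gave 0 as well. It was chosen after seeing the data, as were the alternatives for the counts of genes that do not overlap and of probe sets at an unadjusted p under 0.05. The differences of the named member probe sets all stayed short of the threshold. In some comparisons those of Cdk1, Cks1b, Hmgb2, Mcm2, Mcm4, Pcna, Plk1 and Tk1 turned sign with an array left out, and those near 0 of Mcm4, Pcna and the brightest Plk1 probe set also with another scaling. The turn exceeded the SE for Cdk1 in Btk KO against CBA (-0.11 without Btk KO of run 1) and for the second Plk1 probe set in Btk KO against Xid (-0.14 without Xid of run 1). The cause of the shifts below was not tested. With median centring the median in Btk KO against CBA was -0.05 for S phase genes and 0.08 for all members. With a pseudocount of 32 the median in Btk KO against Xid was 0.16 for S phase genes and 0.18 for all members, and with dim genes left out it was 0.51 for mitotic genes. When each array was left out in turn, the Btk KO against CBA median ranged from -0.03 to 0.24 for S phase genes, from 0.08 to 0.54 for mitotic genes and from 0.08 to 0.31 for all members, with the low ends without Btk KO of run 1. Against Xid it ranged from 0.10 (without Xid of run 2) to 0.34, from 0.21 to 0.81 (without Btk KO of run 2) and from 0.21 to 0.49. For Xid against CBA it ranged from -0.18 to -0.14, from -0.30 to -0.07 (without Xid of run 1) and from -0.31 to -0.15. Calls over all probe sets (5 for Xid against CBA, 13 for Btk KO against CBA and 3 for Btk KO against Xid) were, in this order, 36, 166 and 14 with the block, 11, 73 and 7 with the block and no filter, 74, 90 and 8 when the block was fitted with the first Btk KO array left out, 8, 24 and 8 with a pseudocount of 32, and 9, 0 and 0 from 2 groups alone, and ranged from 0 to 9, from 0 to 141 and from 0 to 31 with an array left out. For Xid against CBA a pseudocount of 1 gave 3. For Btk KO against CBA quantile normalization, median centring and no filter each gave 8, the stricter filter 29 and no intensity trend 0. The highest counts for Btk KO with an array left out came without its array of run 2, which leaves the one with the Gapdh ratio of 10.4.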
